A study of Rattus norvegicus with 6 samples.

Results

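The genes described here are 5 immediate early and growth genes of the rat: Fos (ENSRNOG00000008015), Jun (ENSRNOG00000026293), Egr1 (ENSRNOG00000019422), Myc (ENSRNOG00000004500) and Ccnd1 (ENSRNOG00000020918). They were taken by their Ensembl identifiers from the 26404 genes counted in each library, and all 5 were among the 12221 genes that passed the filter on low counts. The names are those given with the identifiers when the genes were chosen. The reference gene table used here lists 47357 rat genes, of which 0 carry an Ensembl identifier, so the pairing of name and identifier was not checked, and the genes' positions were not used.

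PolyA RNA was sequenced from H9c2 cells (Hc92 in 1 label), a myoblast line from embryonic rat heart, in 6 libraries. The sample titles form 3 groups of 2 libraries: BMPR2 tail domain mutant, BMPR2 kinase domain mutant (called tail mutant and kinase mutant below) and empty vector. BMPR2 is a cell surface serine/threonine kinase that binds bone morphogenetic proteins together with a type I receptor. The design text describes the mutant cells as lacking the domain concerned and uses the empty vector cells as the control for both, so the groups share the cell line and differ in the construct. The sources used here do not say how the constructs were introduced, whether a group is 1 clone, or what the serum and harvest conditions were. Separate cultures for the 2 replicates of a group are not stated either, and the p-values therefore cover the spread of these libraries alone, which may be technical. Bmpr2 itself, the muscle markers of the line and other genes of these pathways were not analysed here, since no table paired their names with identifiers.

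Fos and Jun are subunits of the transcription factor AP-1, and Egr1 is a zinc finger transcription factor. All of these are immediate early genes, whose transcripts appear without new protein synthesis after a growth signal and are short-lived. In many cells the signal runs through the ERK MAP kinases and serum response factor. Myc, a transcription factor of the basic helix-loop-helix zipper class, and Ccnd1, which encodes cyclin D1, belong to the same programme. Cyclin D1 activates the kinases CDK4 and CDK6 and carries the growth signal into the G1 phase of the cell cycle, and AP-1 is among the factors known to act on its promoter.

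The 5 genes did not move together. In both tail mutant libraries Ccnd1 and Jun lay above every other library, and Egr1 and Fos lay below every other library. For Jun and Fos, the counting interval of tail mutant replicate 1 held the level of another library. In the kinase mutant Ccnd1 and Jun lay slightly above empty vector, and Egr1, Fos and Myc overlapped it. Libraries did not overlap in 37.8% of all tested genes between tail mutant and empty vector. The share was 30.0% between the mutants and 50.7% between kinase mutant and empty vector. How many genes had both tail mutant libraries beyond all others was not computed. Of the 5 genes, 0 passed at an adjusted p below 0.05 in edgeR's quasi-likelihood test in any comparison, so none of these differences is called.

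The sequence shown is the Egr1 promoter, the only promoter of the 5 genes in the RefSeq table used here, since Egr1 stood farthest from its own mean in the tail mutant. It covers the 250 bases before the start of the gene, at chr18:26736828-26737077 on the plus strand of GRCr8, written 5′ to 3′. Capitals mark CArG boxes, the motif bound by serum response factor.
Egr1: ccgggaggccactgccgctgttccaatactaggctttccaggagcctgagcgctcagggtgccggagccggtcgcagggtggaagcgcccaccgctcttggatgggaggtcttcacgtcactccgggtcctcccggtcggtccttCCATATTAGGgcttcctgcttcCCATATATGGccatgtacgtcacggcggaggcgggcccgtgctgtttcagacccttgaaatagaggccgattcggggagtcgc
The CArG boxes lay 105 to 96 and 83 to 74 bases before the start. At least 1 CArG box was found in 1.5% of the 33469 promoter windows of this length in the table, and 2 or more in 7 windows. The letters TGACG, the core of the cAMP response element, matched at 2 places, both on the opposite strand, where the sequence shown reads CGTCA. On either strand they matched at least at 1 place in 18.2% of all windows. No match was found, on either strand, for the full element TGACGTCA, which contains this core (1.59% of all windows), the AP-1 site TGANTCA (6.34%), the GC box GGGCGG (30.5%), the EGR site GCGTGGGCG (0.478%) or the E-box CACGTG (5.59%). These matches describe the letters of the window and were not tied to binding.

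The libraries held between 19116082 and 24936136 counts in genes. Levels are counts relative to the library total (CPM), scaled by the trimmed mean of M values (TMM), with factors between 0.936 and 1.08. Tail mutant replicate 2 stood apart: the top 10 genes held 16.0% of all counts in it and 19.9% to 22.1% in the other libraries. Where it moved a difference between 2 groups by over 1.5 times, the value without it is given too. CPM is not divided by gene length, so levels are compared here only between libraries and not between genes. In RNA from whole cultures, fewer cells that express a gene and less RNA per cell cannot be told apart.

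**Figure D1:**
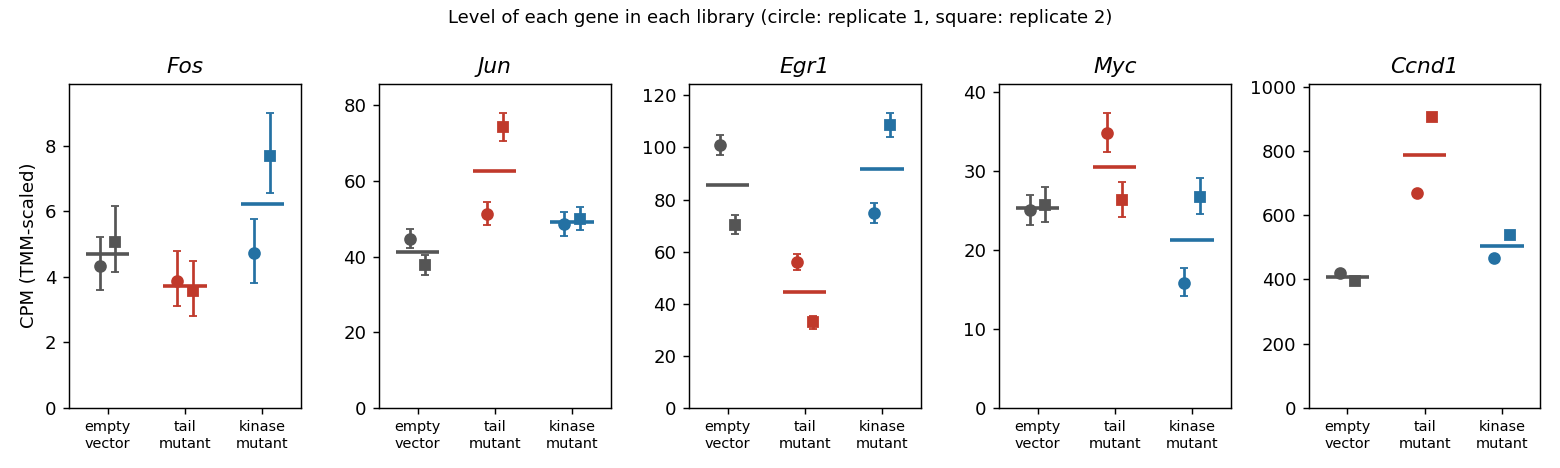
CPM scaled by TMM (vertical axes, each from 0) of Fos, Jun, Egr1, Myc and Ccnd1 in the 6 libraries, with circles for replicate 1, squares for replicate 2, bars for the 95% exact Poisson interval of the count, and lines for the group mean. Ccnd1 and Jun are highest and Egr1 and Fos lowest in the 2 tail mutant libraries. For Jun and Fos the bar of tail mutant replicate 1 reaches the level of another library.

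Ccnd1 stood at 419 and 396 CPM with empty vector, 668 and 905 CPM with the tail mutant, and 466 and 539 CPM with the kinase mutant. The 3 groups did not overlap, and the order was empty vector, kinase mutant, tail mutant. The group means were 407 ± 15.8, 786 ± 167 and 502 ± 51.2 CPM (SD, n = 2) for empty vector, tail mutant and kinase mutant. Ccnd1 was the most deeply counted of the 5, with 8121 to 18718 counts per library, so counting error was small beside the distance between replicates.

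Against empty vector the tail mutant's Ccnd1 was 1.93-fold as high, a log2 difference of 0.95 ± 0.22 (SE) with a 95% interval of 0.42 to 1.48. It was higher in 2 of 2 libraries, with an unadjusted p of 0.00459 and an adjusted p of 0.385 in edgeR, which did not pass. An absolute change at least as large was seen in 9.55% of tested genes. DESeq2, as the only alternative that did, called Ccnd1 in this comparison (adjusted p of 0.00369), and DESeq2 called 2.03% of all tested genes in it. The adjusted p ranged from 0.00369 to 0.999 over 12 alternatives. Without tail mutant replicate 2 the difference was 0.71, and without tail mutant replicate 1 it was 1.15. The higher level of Ccnd1 was thus present in each tail mutant library, and larger in replicate 2.

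In the kinase mutant the Ccnd1 difference from empty vector was 0.30 ± 0.22 (SE) on the log2 scale, with a 95% interval of -0.23 to 0.83 and an adjusted p of 0.647 in edgeR. With scaling by library size alone, where the median tested gene lay at -0.17 in this comparison, the Ccnd1 difference was 0.14 and the libraries overlapped. Without kinase mutant replicate 2 it was 0.19. Between the mutants the log2 difference of Ccnd1 was 0.65 ± 0.22 (SE), with the tail mutant higher, with a 95% interval of 0.12 to 1.18, an unadjusted p of 0.0244 and an adjusted p of 0.926 in edgeR. Without tail mutant replicate 2 that difference was 0.41.

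Jun, the AP-1 subunit that can pair with itself or with Fos, stood at 44.6 and 37.7 CPM in the empty vector libraries, 51.3 and 74.1 CPM in those of the tail mutant, and 48.5 and 49.99 CPM in those of the kinase mutant. Its groups had the same order as those of Ccnd1 and did not overlap. However, tail mutant replicate 1 and each of the kinase mutant libraries lay within each other's counting intervals. The means were 41.2 ± 4.93, 62.7 ± 16.2 and 49.3 ± 1.03 CPM (SD, n = 2) for empty vector, tail mutant and kinase mutant.

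The tail mutant's Jun was 1.52-fold that of empty vector, a log2 difference of 0.61 ± 0.22 (SE) with a 95% interval of 0.06 to 1.15, an unadjusted p of 0.0342 and an adjusted p of 0.555 in edgeR. The difference was 0.32 without tail mutant replicate 2 and 0.85 without tail mutant replicate 1, so its size depended on replicate 2. For the kinase mutant the difference from empty vector was 0.26 ± 0.22 (SE), with a 95% interval of -0.29 to 0.80 and an adjusted p of 0.700 in edgeR. It was 0.14 without empty vector replicate 2 and 0.39 without empty vector replicate 1. With scaling by library size alone it was 0.10, and kinase mutant and empty vector libraries overlapped. Between the mutants the Jun difference was 0.35 ± 0.22 (SE), with a 95% interval of -0.20 to 0.89 and an adjusted p of 0.926 in edgeR, and it was 0.06 without tail mutant replicate 2 and 0.59 without tail mutant replicate 1.

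Fos, the AP-1 subunit that binds DNA only with a partner such as Jun, was the least counted, with 74 to 158 counts per library. Its level was 4.34 and 5.07 CPM with empty vector, 3.88 and 3.58 CPM for the tail mutant libraries, and 4.72 and 7.70 CPM in the kinase mutant. The tail mutant libraries were the lowest, but the 95% Poisson interval of tail mutant replicate 1, from 3.10 to 4.79 CPM, held the level of empty vector replicate 1. Kinase mutant replicate 2 alone was high, with an interval of 6.54 to 8.997 CPM that lay above the levels of all other libraries. The means were 4.71 ± 0.521, 3.73 ± 0.213 and 6.21 ± 2.10 CPM (SD, n = 2) for empty vector, tail mutant and kinase mutant.

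On the log2 scale Fos differed from empty vector by -0.33 ± 0.33 (SE) in the tail mutant, with a 95% interval of -1.14 to 0.47 and an adjusted p of 0.817 in edgeR. In the kinase mutant the difference was 0.40 ± 0.33 (SE), with an interval of -0.39 to 1.20 and an adjusted p of 0.682 in edgeR. It rested on kinase mutant replicate 2, without which it was 0.0065, and was 0.71 without kinase mutant replicate 1. Between the mutants Fos was 0.74 ± 0.33 (SE) lower in the tail mutant, at an unadjusted p of 0.0658 and an adjusted p of 0.926 in edgeR, and without kinase mutant replicate 2 the log2 difference was -0.34.

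Egr1 stood at 101 and 70.2 CPM with empty vector, at 56.0 and 32.8 CPM for the tail mutant libraries, and at 74.9 and 109 CPM in the kinase mutant. Both tail mutant libraries lay below all 4 others, and the empty vector and kinase mutant libraries overlapped. The means were 85.5 ± 21.6, 44.4 ± 16.4 and 91.7 ± 23.8 CPM (SD, n = 2) for empty vector, tail mutant and kinase mutant. Egr1 varied most of the 5 across the libraries, 3.31-fold between its lowest and highest level, and its replicates differed by 1.44-fold with empty vector, 1.71-fold with the tail mutant and 1.45-fold with the kinase mutant. Its counts, between 679 and 2719, put these replicate differences beyond counting error.

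The tail mutant's Egr1 was 0.519 times that of empty vector, a log2 difference of -0.94 ± 0.34 (SE) with a 95% interval of -1.77 to -0.12, lower in 2 of 2 libraries. The unadjusted p was 0.0310 and the adjusted p 0.555 in edgeR, which did not pass, and the adjusted p ranged from 0.162 to 0.999 over 12 alternatives. An absolute change at least as large was seen in 9.63% of tested genes. The difference was -0.61 without tail mutant replicate 2, -1.38 without tail mutant replicate 1, and -0.66 without empty vector replicate 1. Its direction was the same with any 1 library left out, which follows from libraries that do not overlap and adds no support. Its size depended on which library of either group was used.

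In the kinase mutant no difference of Egr1 from empty vector was detected, at 0.10 ± 0.34 (SE) on the log2 scale, with a 95% interval of -0.72 to 0.92 and an adjusted p of 0.933 in edgeR. Its sign flipped, to -0.07, with scaling by library size alone, which moved the median tested gene about as far, to -0.17. Between the mutants Egr1 was lower in the tail mutant by a log2 difference of -1.05 ± 0.34 (SE), with a 95% interval of -1.87 to -0.22, an unadjusted p of 0.0211 and an adjusted p of 0.926 in edgeR. An absolute difference at least as large was found in 5.65% of tested genes, the smallest such share among the 5 genes in the 3 pairwise comparisons. Without tail mutant replicate 2 this difference was -0.71, and without kinase mutant replicate 2 it was -0.75.

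Myc stood at 25.1 and 25.7 CPM with empty vector, at 34.8 and 26.3 CPM for the tail mutant libraries, and at 15.9 and 26.7 CPM in the kinase mutant. Of the 6 libraries, 4 lay between 25.1 and 26.7 CPM, tail mutant replicate 1 alone was higher and kinase mutant replicate 1 alone was lower. The means were 25.4 ± 0.460, 30.6 ± 5.99 and 21.3 ± 7.70 CPM (SD, n = 2) for empty vector, tail mutant and kinase mutant. No difference was detected in the tail mutant, at 0.27 ± 0.28 (SE) on the log2 scale with a 95% interval of -0.42 to 0.96 and an adjusted p of 0.833 in edgeR, and it was 0.05 without tail mutant replicate 1 and 0.46 without tail mutant replicate 2. Neither was one detected in the kinase mutant, at -0.25 ± 0.29 (SE) with an interval of -0.94 to 0.44 and an adjusted p of 0.771 in edgeR. That value turned to 0.08 without kinase mutant replicate 1 and to -0.68 without kinase mutant replicate 2. Between the mutants the difference was 0.52 ± 0.29 (SE), with an interval of -0.17 to 1.21 and an adjusted p of 0.926 in edgeR. With kinase mutant replicate 1 left out it was 0.19, with replicate 2 of that group left out 0.95, and in the absence of tail mutant replicate 1 it was 0.31.

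**Figure D2:**
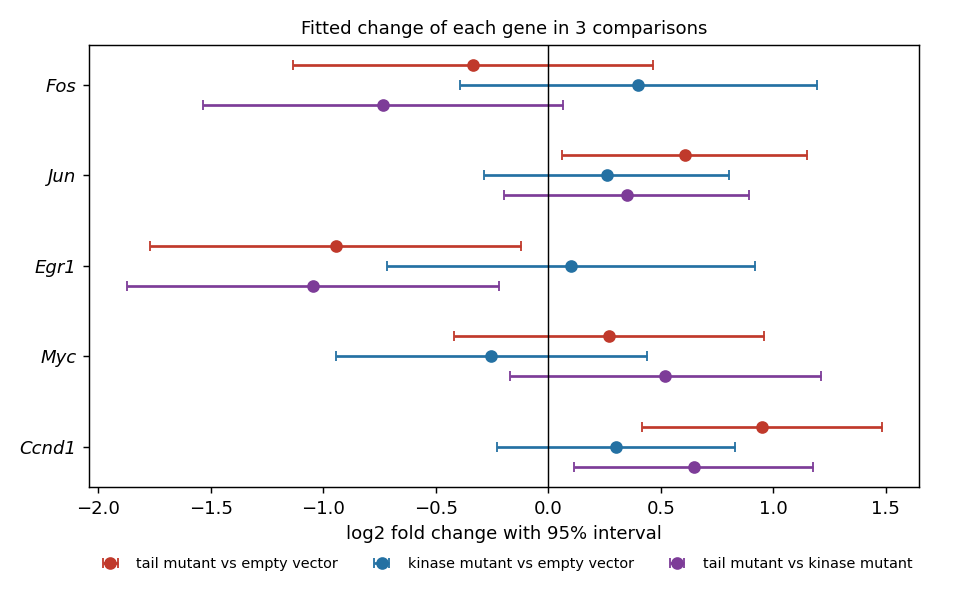
Fitted log2 fold change (horizontal axis) of each gene in 3 comparisons, with 95% intervals from edgeR's quasi-likelihood fit before any adjustment for multiple tests. The intervals of Jun, Egr1 and Ccnd1 exclude 0 for the tail mutant against empty vector, those of Egr1 and Ccnd1 do so between the mutants, and none does for the kinase mutant against empty vector.

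As a list, the 5 genes can be set beside all tested genes. They were chosen with earlier results of these data known, so in each comparison these shares are a description. A share above that of all tested genes is no support for a change of the list. For the tail mutant against empty vector, edgeR called 0 of the 5 and 0.00818% of all tested genes. An unadjusted p below 0.05 was reached by 3 of the 5, Ccnd1, Egr1 and Jun, and by 8.56% of all tested genes. The libraries did not overlap in 5 of 5, with Jun, Myc and Ccnd1 higher and Fos and Egr1 lower, against 37.8% of all tested genes. For Myc and Fos this lay within counting error. The Myc interval of tail mutant replicate 2, 24.17 to 28.65 CPM, held both empty vector levels. The Fos interval of tail mutant replicate 1 held the level of empty vector replicate 1. The median log2 change of the list was 0.27, against 0.01 over all tested genes, but the list holds genes of opposite direction. By absolute size the middle change of the 5 was that of Jun, 0.61, and the median absolute change over all tested genes was 0.23.

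For the kinase mutant against empty vector, edgeR called 0 of the 5 and 0.00818% of all tested genes, and an unadjusted p below 0.05 was reached by 0 of the 5 and by 10.8% of all tested genes. The libraries did not overlap in 2 of 5, Jun and Ccnd1, against 50.7% of all tested genes, so the share of the list was below the background. The median log2 change of the list was 0.26, the value of Jun, against -0.01 over all tested genes. By absolute size the middle change of the 5 was also that of Jun, 0.26, and the median absolute change over all tested genes was 0.26 too. By that measure the list changed no more than a typical tested gene. The empty vector libraries serve as control in both of these comparisons.

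For the tail mutant against the kinase mutant, edgeR called 0 of the 5 and 0% of all tested genes, although 448 of these had an unadjusted p below 0.05 and DESeq2 called 12. An unadjusted p below 0.05 was reached by 2 of the 5, Egr1 and Ccnd1, and by 3.67% of all tested genes. The libraries did not overlap in 4 of 5, every gene but Myc, against 30.0% of all tested genes. With scaling by library size alone Myc did not overlap either, 5 of 5 genes against 32.8%, and the median tested gene lay at 0.13. The median log2 difference of the list was 0.35, against 0.01 over all tested genes, again with genes of opposite direction. By absolute size the middle difference of the 5 was that of Ccnd1, 0.65, and the median absolute difference over all tested genes was 0.22.

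With both mutants set together against empty vector, the libraries did not overlap in 2 of 5 genes, Ccnd1 and Jun, both higher in the mutants, against 24.4% of all tested genes. An unadjusted p below 0.05 was reached by 1 of the 5, Ccnd1, and by 11.4% of all tested genes. Ccnd1 differed by 0.63 ± 0.19 (SE) on the log2 scale, at an unadjusted p of 0.0171 and an adjusted p of 0.326 in edgeR, and Jun by 0.43 ± 0.20 (SE) at an adjusted p of 0.484. Jun was at 0.29 without tail mutant replicate 2. EdgeR called 0.0327% of all tested genes in this comparison. DESeq2, as the only alternative that did, called Ccnd1 (adjusted p of 0.0429; 0.0429 to 0.998 over 11 alternatives), and it called 3.44% of all tested genes. With scaling by library size alone, mutant and empty vector libraries overlapped for both genes. Egr1 differed by -0.42 ± 0.29 (SE), a value that became -0.14 and -0.66 when empty vector replicates 1 and 2 were left out in turn, and -0.64 and -0.25 when those of the tail mutant were. Fos and Myc lay at 0.03 ± 0.29 and 0.01 ± 0.25 (SE), and without tail mutant replicate 2 at 0.06 and 0.10. With scaling by library size alone, where the median tested gene was at -0.10, they lay at -0.06 and -0.09.

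**Figure D3:**
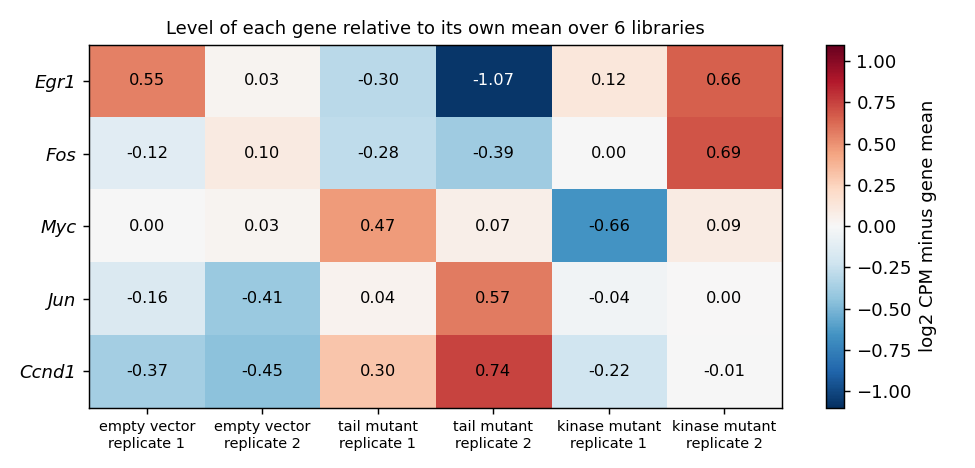
Log2 CPM of each gene (rows) minus its own mean over the 6 libraries (columns), with red for above and blue for below the mean and the value printed in each cell. Tail mutant replicate 2 holds the lowest value of Egr1, -1.07, and the highest of Ccnd1, 0.74, and of Jun, 0.57.

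Likeness between the genes was measured as the root mean square difference of their log2 CPM profiles over the 6 libraries, each centred on its own mean. The closest of the 10 pairs was Jun with Ccnd1, at 0.17. Fos with Egr1 came next, at 0.39, and Egr1 with Ccnd1 was the farthest pair, at 0.94. Fos and Jun, the AP-1 partners, lay 0.54 apart, farther than Jun from Myc, at 0.42. Genes that vary little lie close to each other on this measure, all points share the same 6 libraries, and the values are a description.

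Ratios of counts within a library do not depend on the scaling, and gene length cancels when libraries are compared. They restate the levels above and add no independent support. Of 6 such ratios computed, that of Ccnd1 to Egr1 spread most. It was 4.15 and 5.64 with empty vector, 6.22 and 4.96 for the kinase mutant libraries, and 11.9 and 27.6 for those of the tail mutant. The ratio of Fos to Jun was 0.0972 and 0.135 with empty vector, 0.0973 and 0.154 for the kinase mutant libraries, and 0.0756 and 0.0482 for those of the tail mutant. The ratios are a description and were not tested.

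**Figure D4:**
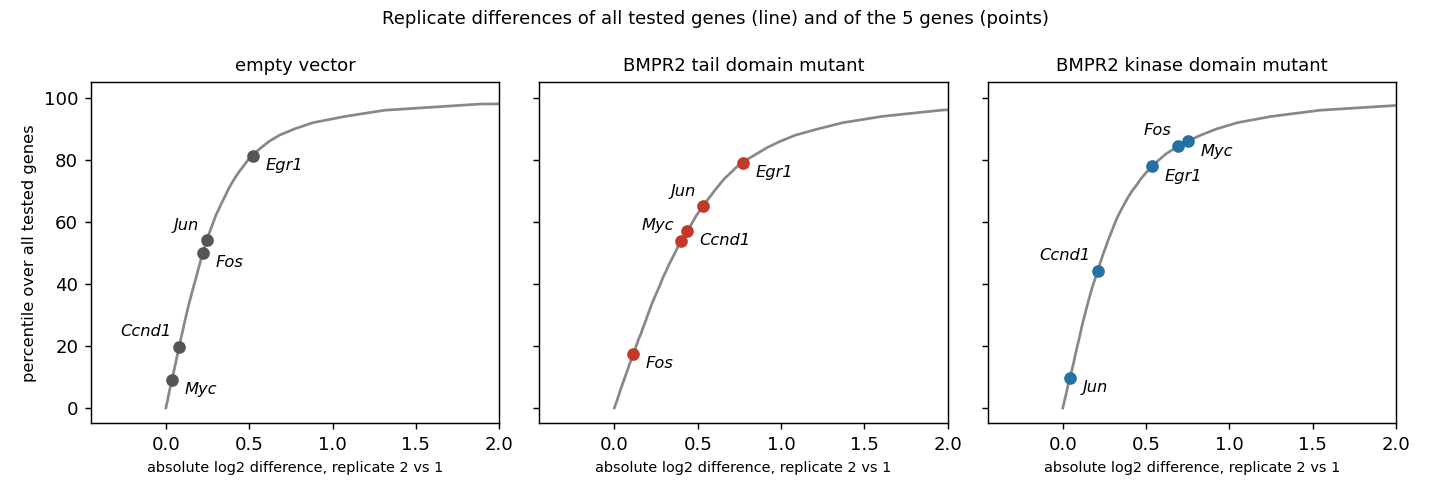
Absolute log2 difference between the replicates of each group (horizontal axis) against its percentile over all tested genes (vertical axis, line), with the 5 genes as points on that line. Egr1 lies in the upper part of all 3 panels, and Fos and Myc lie there in the kinase mutant panel.

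Replicates differed by a median of 0.22 on the log2 scale over all tested genes with empty vector, 0.36 with the tail mutant and 0.24 with the kinase mutant. Egr1 differed by more than that in each group, and a difference at least as large was found in 18.6%, 20.9% and 22.1% of tested genes. The sign was not shared: Egr1 was lower in replicate 2 of empty vector and of the tail mutant, and higher in replicate 2 of the kinase mutant. Myc and Fos had their largest replicate differences in the kinase mutant, 0.75 and 0.69, reached by 14.0% and 15.6% of tested genes. Ccnd1 differed by 0.08, 0.44 and 0.21 in the 3 groups, and a difference at least as large was found in 42.9% to 80.3% of tested genes.

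**Figure D5:**
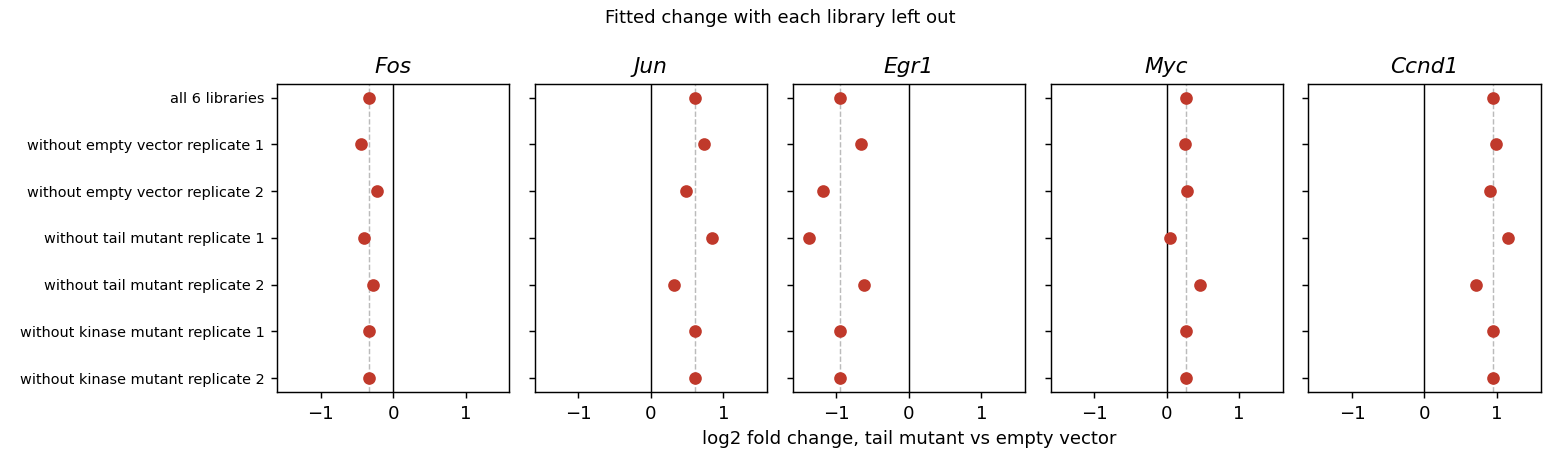
Log2 fold change of each gene in the tail mutant against empty vector (horizontal axes) with all 6 libraries and with each library left out (vertical axis), where the dashed line marks the value from all 6. Every value of a gene stays on 1 side of 0, which follows from tail mutant and empty vector libraries that do not overlap. Leaving out either tail mutant library moves Egr1, between -1.38 and -0.61, more than Ccnd1, between 0.71 and 1.15.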

How the data were processed

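Each library has 1 deposited file of raw, not normalized read counts by Ensembl gene identifier. Per the submitters' processing notes the authors used Trimmomatic 0.33, STAR 2.4.0 and HTSeq 0.6.1p1 with genome build Rnor_5.0. The sources used here give neither strand setting nor annotation release. Whether reads of a gene and of an antisense partner were counted apart is therefore not known. The 5 rows that name no gene, 43.0% to 48.4% of each file's total and mostly reads aligned to several places, were left out.

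Counts were fitted in R 4.3.3 with edgeR 4.0.16: filterByExpr by group (minimum count 10, total 15), TMM, robust quasi-likelihood, group as the only term, all 6 libraries in 1 fit with 3 residual degrees of freedom. P-values were adjusted by Benjamini-Hochberg over all 12221 tested genes and called below 0.05. DESeq2 1.42.0 and limma-voom (limma 3.58.1) were alternatives. The SE is the log2 change divided by the square root of F. Profiles use log2 CPM with a prior count of 2, and ratios under other scalings add 0.1 CPM to group means. Poisson intervals (95%) cover counting error only. The fit was also run on simulated counts as a check of the code. How often it calls changes of the size seen here is not given.

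The 5 genes, and the lists that could not be matched to identifiers, were chosen with earlier results of these data known. All 5 are named in every comparison. Genes of similar profile were to be named only with a symbol, so only distances among the 5 are given. The promoter is from RefSeq (GRCr8), matched by symbol for 1 of 5 genes.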

Additional observations from a re-analysis of the deposited data

How the results depend on the processing

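Of 235 values of the 5 genes under the alternatives, 224 kept their direction and their side of the threshold, 2 passed it (Ccnd1 with DESeq2, 0.95 for the tail mutant and 0.63 for both mutants against empty vector) and 9 changed sign. Since none of the 5 genes was called in the main fit, keeping the side of the threshold meant staying uncalled. Leaving out a library of a group outside the comparison could hardly move a difference. When each library in turn was left out of the kinase mutant comparison with empty vector, Egr1 ranged from -0.19 (without kinase mutant replicate 2) to 0.39, with -0.14 when empty vector replicate 2 was absent, and Myc ranged from -0.678 (without kinase mutant replicate 2) to 0.0754 (without kinase mutant replicate 1). For both mutants against empty vector, Fos ranged from -0.16 to 0.19, negative when kinase mutant replicate 2 or empty vector replicate 1 was absent. Myc ranged from -0.20 to 0.17, negative when kinase mutant replicate 2, tail mutant replicate 1 or empty vector replicate 1 was absent, and was -0.0218 with limma-voom. The cause was not tested. EdgeR called 1 gene for the tail mutant and 1 for the kinase mutant against empty vector, 0 between the mutants and 4 for both mutants against empty vector. In that order DESeq2 called 248, 361, 12 and 421, limma-voom 0, 0, 0 and 1, edgeR with no filter 9, 2, 0 and 49, and edgeR with only the groups compared 0, 0 and 0 in the first 3. Leaving out 1 library gave 0 to 21, 0 to 2, 0, and 0 to 12 calls. The 21 came in the absence of tail mutant replicate 1, the 2 and the 12 in that of empty vector replicate 1. The tail mutant comparison had 0 calls in the absence of tail mutant replicate 2 or either kinase mutant library, and the kinase mutant comparison in that of any mutant library. Both mutants had 2 calls without empty vector replicate 2, 0 with either tail mutant library absent and 1 with either kinase mutant library absent. Libraries did not overlap in 13 of 20 pairs of gene and comparison (37.8%, 50.7%, 30.0% and 24.4% of all tested genes), and in 11 with scaling by library size alone (34.8%, 52.6%, 32.8% and 23.2%), where Jun and Ccnd1 were lost in the kinase and both-mutant comparisons and Myc was gained, lower in the kinase mutant than in empty vector and than in the tail mutant. The replicate block called 2, 2, 0 and 2 genes. With it Ccnd1 differed by 0.93 and Egr1 by -0.96 in the tail mutant against empty vector, and it changed the call of none of the 5 genes. The replicate differences of the groups correlated across genes at 0.124 (empty vector and tail mutant), -0.131 (empty vector and kinase mutant) and -0.353 (both mutants). The sign was not shared, and whether libraries were paired in another order than their numbers was not tested. Depth limits Fos most of the 5, at 74 to 158 counts.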
